A study of Homo sapiens with 10 samples.

Results

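The genes described here are 10 members of the epidermal growth factor (EGF) family system, taken by gene symbol: the ligand genes EPGN, EREG, AREG, HBEGF, TGFA and BTC, the receptor genes EGFR, ERBB2 and ERBB3, and ERRFI1, which encodes a feedback inhibitor of the receptors. All 10 were present among the 22003 features of the count table, and all 10 passed the filter on low counts. EPGN, which encodes the ligand epigen, was the member with the clearest difference. It stood at 16.0 to 25.8 CPM (read counts scaled to library size) in the 5 libraries from cells given LBP, against 3.79 to 5.21 CPM in the 5 libraries from vehicle cells, with or without irradiation. EREG and EGFR were also higher with LBP in irradiated cells, the comparison whose results were known when the genes were selected. Their calls there held in 6 and 10 of 15 alternative settings. Neither passed the edgeR test in non-irradiated cells (adjusted p = 0.40 and 0.46). The receptor genes ERBB2 and ERBB3 passed the main edgeR test, fitted to all 10 libraries, in no comparison. ERBB3 was lower with LBP in non-irradiated cells and passed there in 2 of 13 alternative settings.

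The cells were HaCaT, a spontaneously immortalised human keratinocyte line of wild-type label, grown in medium with 5% fetal bovine serum, and each condition therefore rests on 1 line. LBP stands for a mixture of polysaccharides and glycoproteins obtained from Lycium barbarum, the goji berry plant. The groups were irradiated LBP (LBP for 24 h, then 12 Gy; n = 3), irradiated vehicle (vehicle for 24 h, then 12 Gy; n = 3), LBP (LBP for 24 h, no irradiation; n = 2) and vehicle (vehicle for 24 h, no irradiation; n = 2). RNA was taken 3 h after irradiation. The labels do not tell whether a group's libraries are separate cultures; the p-values cover the variation among these libraries alone, and it may be technical.

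Ligands of this family are made as membrane-anchored precursors, and metalloproteases such as ADAM17 release the soluble factor. Epigen, amphiregulin (AREG) and transforming growth factor alpha (TGFA) bind the EGF receptor, while heparin-binding EGF-like growth factor (HBEGF), betacellulin (BTC) and epiregulin (EREG) bind ERBB4 as well. Bound receptors pair with each other and signal through the RAS-ERK and PI3K routes. ERBB2 has no known ligand of its own, and ERBB3 has little kinase activity and binds neuregulins. In keratinocytes, autocrine signalling through EGFR drives proliferation and migration, and several ligand genes are themselves induced by EGFR and stress kinase signalling.

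The libraries held 31830506 to 62986831 counts each. Keratinocyte markers were high in every library, with KRT5 at 1075 to 1336 FPKM (the authors' values scaled for gene length and depth) and KRT14 at 1537 to 2115 FPKM. The labels give the tissue as mucosa. Of the mucosal and simple epithelial keratin genes, KRT4 lay between 0.781 and 1.72 FPKM and KRT13 between 27.5 and 56.0 FPKM. KRT19 lay between 633 and 838 FPKM, KRT18 between 746 and 1066 FPKM and KRT8 between 1274 and 1806 FPKM. Fibroblast, endothelial and melanocyte markers were low, the leukocyte list summed to 6.430 to 10.002 FPKM over all libraries, and DCN, PECAM1, TEK and TYR had no count in any library. The sum of the 8 keratinocyte markers ran from 4411 to 4748 FPKM in irradiated LBP cells against 3981 to 4657 FPKM in irradiated vehicle cells, and from 4720 to 4969 FPKM in LBP cells against 4155 to 4410 FPKM in vehicle cells. The sum of the 7 simple and mucosal epithelial markers, all 7 of them detected, ran from 2797 to 3199 FPKM in irradiated LBP cells against 3248 to 3748 FPKM in irradiated vehicle cells, and from 3130 to 3658 FPKM in LBP cells against 3641 to 3818 FPKM in vehicle cells. The sum of the 5 melanocyte markers ran from 1.453 to 1.5004 FPKM against 1.69 to 1.94 FPKM and from 1.406 to 1.498 FPKM against 1.63 to 1.66 FPKM in the same pairs of groups. Most of the melanocyte sum came from MITF, at 1.01 to 1.65 FPKM, while MLANA and DCT reached at most 0.067 and 0.015 FPKM. The part of these marker sums in the differences described next was not tested. In bulk RNA, fewer cells of a type and less RNA per cell cannot be told apart. Within irradiated LBP cells, replicate 2, which had the fewest counts of all libraries, was low and replicate 3 high for EREG and HBEGF. For LBP in irradiated cells, results of members that rest on either are also given with libraries left out.

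Of the 10 members, 4 are neighbours on chromosome 4. On GRCh38, EPGN (ENSG00000182585.9) lies on the plus strand at 74308473 to 74315307, EREG (ENSG00000124882.3) on the plus strand at 74365143 to 74388751, AREG (ENSG00000109321.10) on the plus strand at 74445134 to 74455009, and BTC (ENSG00000174808.11) on the minus strand at 74744759 to 74794686. Together they span 486.2 kb, all 4 are annotated as protein coding, and none overlaps another annotated gene. The other 6 members are also protein coding. HBEGF occupies positions 140332843 to 140346631 of chromosome 5 (minus strand), and TGFA positions 70447280 to 70554193 of chromosome 2 (minus strand). EGFR occupies positions 55019021 to 55211628 of chromosome 7 (plus strand), and ERRFI1 positions 8004404 to 8026308 of chromosome 1 (minus strand). ERBB2 occupies positions 39687914 to 39730426 of chromosome 17 (plus strand) and overlaps PGAP3 and MIEN1, which are on the other strand and in the count table. ERBB3 occupies positions 56076799 to 56103505 of chromosome 12 (plus strand) and overlaps AC034102.2, which is on the same strand and in the count table. The genes that overlap TGFA, EGFR and ERRFI1 in the annotation have no entry of their own in the count table. The strand setting of the counting is not given in the sources used here, so how reads were divided at ERBB2 and ERBB3, and whether antisense reads were counted for EGFR and ERRFI1, is uncertain.

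EPGN, EREG and AREG, the 3 neighbouring ligand genes on the plus strand, are shown by the 250 bases before their RefSeq start sites, because they lie side by side and their levels with LBP differ in size. RefSeq windows of build GRCh38.p14 were found for 9 of the 10 members. The sequences read 5′ to 3′ on the plus strand, at chr4:74308220-74308469, chr4:74364895-74365144 and chr4:74444886-74445135. Capitals mark matches, on either strand, to 5 motifs: GCGTG, the core of the aryl hydrocarbon receptor element; TGACNNNGC, the core of the antioxidant response element; TGANTCA, the AP-1 site; TGACGTCA, the cAMP response element; and TATAAA, the TATA box. No match overlapped another.
EPGN: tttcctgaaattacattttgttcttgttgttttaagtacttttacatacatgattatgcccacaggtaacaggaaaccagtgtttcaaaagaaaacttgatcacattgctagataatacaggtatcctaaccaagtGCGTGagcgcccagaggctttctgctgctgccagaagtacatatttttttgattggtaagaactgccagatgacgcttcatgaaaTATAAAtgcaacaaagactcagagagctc
EREG: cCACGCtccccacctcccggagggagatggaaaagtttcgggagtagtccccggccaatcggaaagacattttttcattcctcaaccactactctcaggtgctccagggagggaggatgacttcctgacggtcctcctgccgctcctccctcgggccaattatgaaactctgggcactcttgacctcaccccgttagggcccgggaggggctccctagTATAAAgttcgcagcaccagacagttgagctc
AREG: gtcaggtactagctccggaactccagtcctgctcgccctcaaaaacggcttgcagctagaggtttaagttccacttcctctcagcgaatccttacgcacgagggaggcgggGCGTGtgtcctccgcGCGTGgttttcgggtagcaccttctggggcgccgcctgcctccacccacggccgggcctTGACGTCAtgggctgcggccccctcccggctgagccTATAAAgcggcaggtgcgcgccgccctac

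All 3 windows held TATAAA, beginning 29 bases before the start site in EPGN, 32 in EREG and 29 in AREG, against 10.7% of the 35116 promoter windows of the same length. GCGTG occurred 1 time in EPGN, 1 time in EREG (as CACGC) and 2 times in AREG, and 32.2% of all windows held it. TGACGTCA was found in AREG, 65 bases before the start, against 1.65% of all windows. Neither TGACNNNGC nor TGANTCA was in any of the 3, against 10.9% and 6.57% of all windows. The EPGN window was 38% G or C, the EREG window 58% and the AREG window 65.2%, and the median over all windows was 58%. A match is a string of letters in this window, not a measured binding site.

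Levels between genes were compared per length, in FPKM. EGFR was the highest of the 10, at 67.4 to 97.8 FPKM over the 10 libraries. AREG, at 20.9 to 64.2 FPKM, and TGFA, at 27.2 to 43.7 FPKM, followed, and their ranges overlapped. ERBB2 stood at 20.8 to 27.4 FPKM, ERRFI1 at 10.8 to 24.3 FPKM and HBEGF at 6.55 to 28.0 FPKM. EREG ran from 2.33 to 15.4 FPKM, EPGN from 1.41 to 8.75 FPKM and ERBB3 from 2.92 to 4.64 FPKM, with ranges that overlapped each other. BTC was the lowest, at 0.0739 to 0.289 FPKM, from 9 to 40 counts per library. EGFR did not overlap AREG and BTC did not overlap ERBB3, and every other neighbouring pair in this order had overlapping ranges. AREG and TGFA together made up 66.2% to 76.8% of the summed FPKM of the 6 ligand genes in irradiated LBP cells, against 82.1% to 82.9% in irradiated vehicle cells, and 78.7% and 80.0% in LBP cells against 81.4% and 82.4% in vehicle cells. EPGN, at no more than 8.75 FPKM, stood below the lowest AREG and TGFA value in every library.

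**Figure D1:**
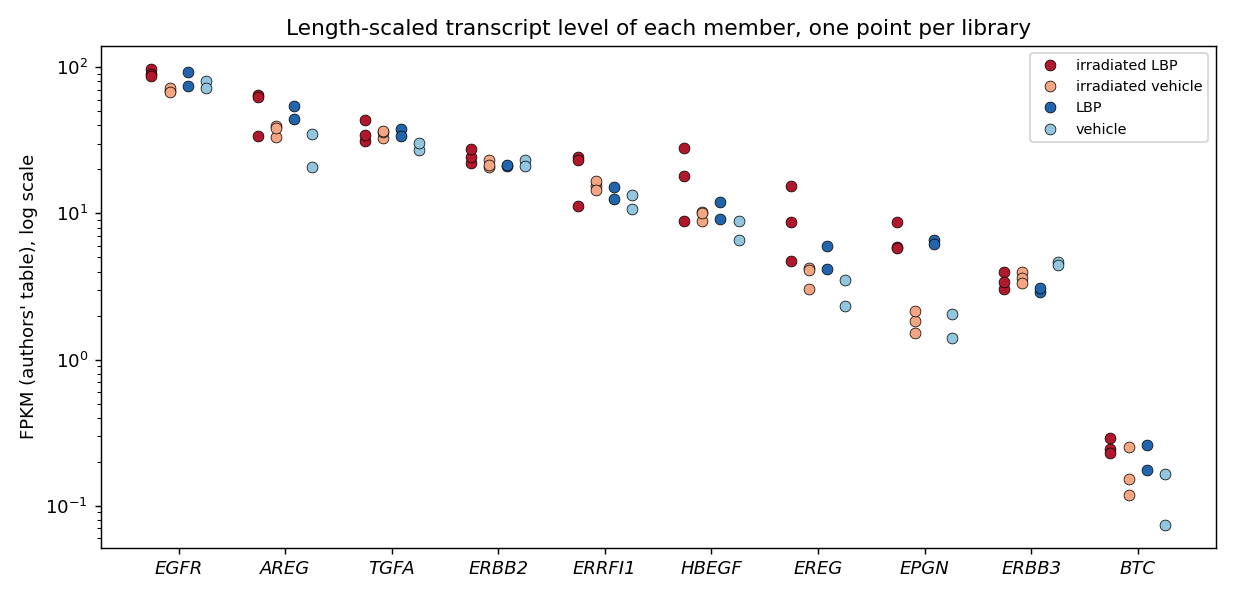
FPKM of each member (vertical, log scale) in every library, in order of the mean over 10 libraries, coloured by group. EGFR lies highest at 67.4 to 97.8 FPKM and BTC lowest at 0.0739 to 0.289 FPKM, and EPGN separates by LBP.

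Irradiated LBP cells were set against irradiated vehicle cells (n = 3 each) to ask what LBP pretreatment did in cells that were then irradiated. The gene set was selected on earlier results of this comparison, in which the fold changes and calls of EPGN, EREG and EGFR were known, so its values are a description, given with no p-value. Of the 10 members, 3 passed an adjusted p of 0.05 in the higher direction, by edgeR's quasi-likelihood test over all features, and none passed in the lower direction; 2.79% of all features passed in the higher direction, 1.57% in the lower and 4.36% in either. DESeq2 also called 3 members and limma on FPKM 2. The median log2 fold change was 0.48 over the members and 0.0051 over all features tested. The comparison of LBP with vehicle cells (n = 2 each) takes its fold changes from none of the same libraries. Its SEs and p-values use a spread estimated over all 10 libraries, the irradiated ones included. There 1 of 10 members, EPGN, passed in the higher direction, against 0.541% of all features, and none in the lower direction, against 0.264%, with 0.804% in either; 4 members had an unadjusted p under 0.05, DESeq2 called EPGN and ERBB3, and limma on FPKM called EPGN. The median was 0.44 over the members and 0.010 over all features.

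**Figure D2:**
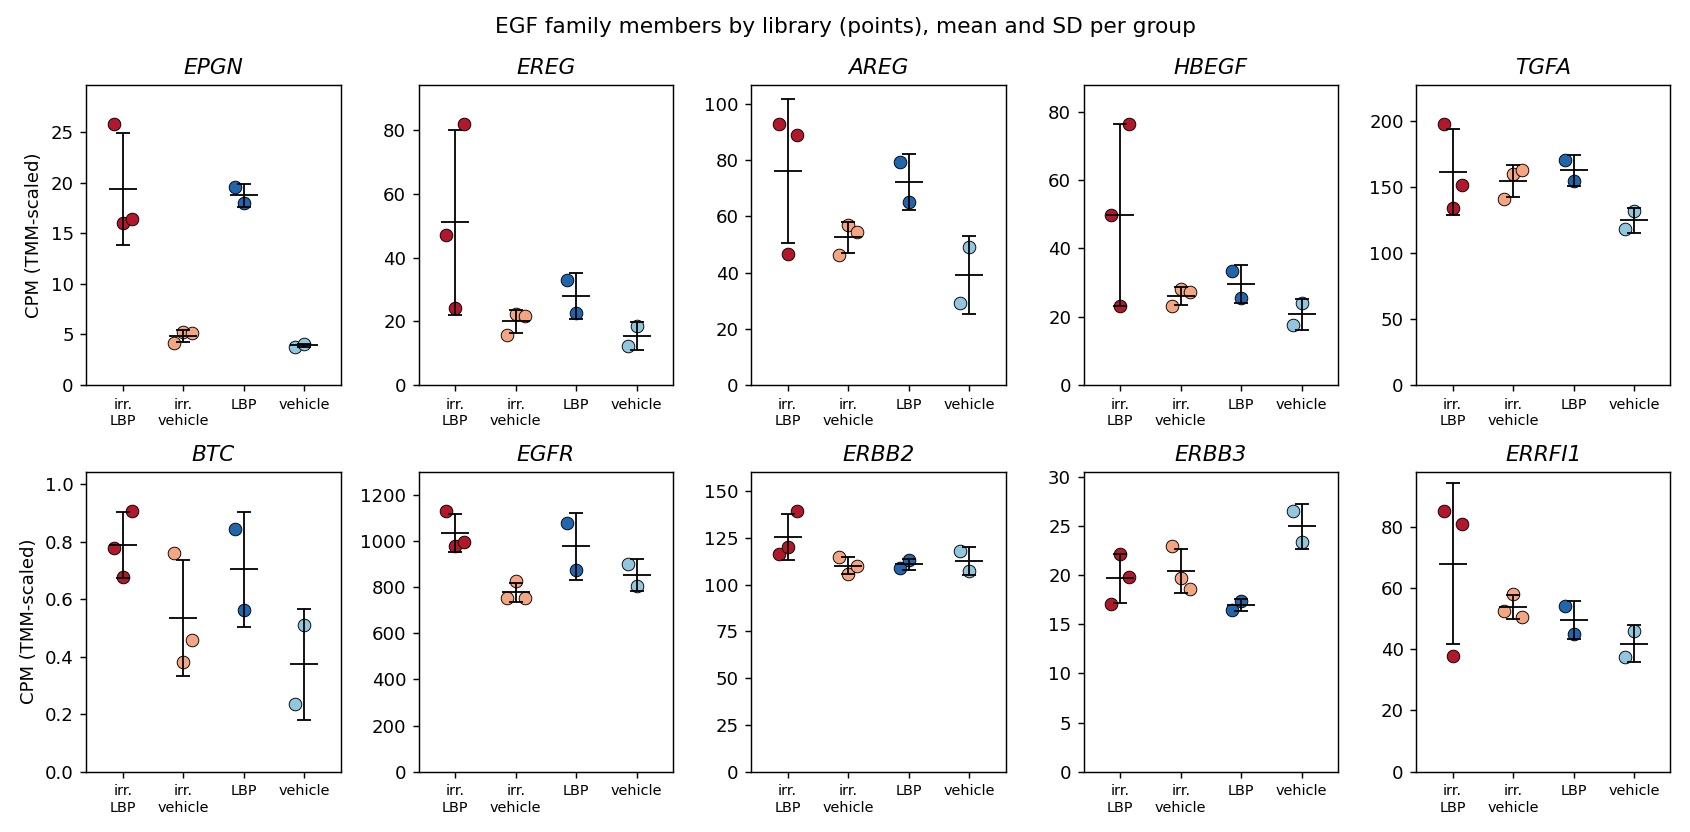
CPM of each member (vertical, linear from 0) by group; points are libraries, horizontal bars are means and error bars SD. EPGN is at 16.0 to 25.8 CPM in the LBP libraries against 3.79 to 5.21 CPM in the vehicle libraries, while AREG, HBEGF and ERRFI1 spread widely within irradiated LBP cells.

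EPGN had 25.8, 16.0 and 16.4 CPM in irradiated LBP replicates 1, 2 and 3, against 4.18, 5.21 and 5.17 CPM in irradiated vehicle cells. All 3 libraries with LBP lay far above all 3 without it, with a log2 fold change of 2.00 ± 0.17 (SE). In non-irradiated cells EPGN had 19.6 and 18.0 CPM with LBP, against 3.79 and 4.03 CPM with vehicle. In these libraries, which lie outside the comparison the set was selected on, EPGN rose 4.79-fold, a log2 fold change of 2.26 ± 0.22 with a 95% interval of 1.79 to 2.73 (adjusted p = 0.00023, edgeR). Both pairs of groups were separate. The call in non-irradiated cells held in every one of the 13 alternative settings, with values from 1.45 to 2.32.

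EREG encodes epiregulin, a ligand of low affinity and long-lasting action. It had 47.2, 24.3 and 81.9 CPM in irradiated LBP replicates 1, 2 and 3, against 15.8, 22.5 and 21.7 CPM in irradiated vehicle cells. The groups were separate, but only narrowly, since replicate 2 of the LBP group lay just above the highest vehicle library. The log2 fold change was 1.36 ± 0.34, or 1.69 ± 0.24 without irradiated LBP replicate 2 and 0.84 without irradiated LBP replicate 3, where the call was lost. It was also lost without irradiated LBP replicate 1 (1.41) and without irradiated vehicle replicate 1, 2 or 3 (1.22, 1.45 and 1.42). With all libraries the call was lost with limma on FPKM at either pseudocount (1.02 and 1.17) or with no filter (1.02), and when only the 2 groups were fitted (1.36), so it held in 6 of 15 alternatives. In non-irradiated cells EREG had 32.9 and 22.7 CPM with LBP, against 12.2 and 18.4 CPM with vehicle. That difference, 0.85 ± 0.42, did not pass (adjusted p = 0.40, edgeR), and its 95% interval ran from -0.06 to 1.76.

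AREG encodes amphiregulin, an abundant autocrine factor of keratinocytes. It had 92.8, 46.5 and 89.0 CPM in irradiated LBP replicates 1, 2 and 3, against 46.2, 56.8 and 54.4 CPM in irradiated vehicle cells. Replicates 1 and 3 lay above every vehicle library and replicate 2 within their range, and the log2 fold change was 0.54 ± 0.23. In non-irradiated cells AREG had 79.3 and 65.2 CPM with LBP, against 29.3 and 49.1 CPM with vehicle. The groups did not overlap, and the value of 0.87 ± 0.29 did not pass (adjusted p = 0.21, edgeR); it passed when only these 4 libraries were fitted (adjusted p = 0.042).

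HBEGF encodes heparin-binding EGF-like growth factor, an early response gene in wounded epidermis. It had 49.9, 23.2 and 76.4 CPM in irradiated LBP replicates 1, 2 and 3, against 23.2, 28.0 and 27.1 CPM in irradiated vehicle cells. The groups overlapped through replicate 2 alone, and the log2 fold change was 0.94 ± 0.31. In non-irradiated cells HBEGF had 33.5 and 25.6 CPM with LBP, against 17.6 and 23.9 CPM with vehicle, a value of 0.51 ± 0.38 (adjusted p = 0.59, edgeR) with a 95% interval from -0.32 to 1.33.

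TGFA, the ligand first known from transformed cells, had 198, 134 and 152 CPM in irradiated LBP cells, against 141, 160 and 163 CPM in irradiated vehicle cells, and the groups overlapped (0.06 ± 0.12). In non-irradiated cells it had 171 and 154 CPM with LBP, against 118 and 132 CPM with vehicle, a value of 0.38 ± 0.15 that did not pass (adjusted p = 0.29, edgeR). BTC, encoding betacellulin, ran from 0.678 to 0.907 CPM in irradiated LBP cells, against 0.381 to 0.762 CPM in irradiated vehicle cells (0.58 ± 0.36), and had 0.845 and 0.562 CPM in LBP cells, against 0.237 and 0.509 CPM in vehicle cells (0.86 ± 0.45, adjusted p = 0.43, edgeR). At 9 to 40 counts per library, counting error limits what can be seen for BTC.

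Groups that did not overlap were found for 4 of 10 members in the higher direction in irradiated cells (EPGN, EREG, EGFR and ERBB2) and for none in the lower direction, against 13.9% and 13.6% of all features and 27.5% in either. In non-irradiated cells all 6 ligand genes were higher without overlap, against 23.2% of all features, and 1 member, ERBB3, was lower without overlap, against 22.3%, with 45.5% in either. With 2 libraries a group, so many features separate that these counts say little on their own. The 2 protein-coding genes that flank the chromosome 4 cluster were chosen after the members' values were seen. MTHFD2L, a mitochondrial folate enzyme gene whose start lies at -194.3 kb from that of EPGN, had 2.75 ± 0.22 CPM in irradiated LBP cells against 3.40 ± 0.40 CPM in irradiated vehicle cells (SD, n = 3 each), a log2 fold change of -0.31 ± 0.15. It had a value of 0.17 ± 0.18 in non-irradiated cells (adjusted p = 0.73, edgeR). PARM1, whose start lies 624.6 kb beyond that of EPGN, was at -0.88 ± 0.38 in irradiated cells, from 0.422 CPM with LBP against 0.776 CPM with vehicle, and at -0.20 ± 0.46 in non-irradiated cells (adjusted p = 0.89, edgeR).

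**Figure D3:**
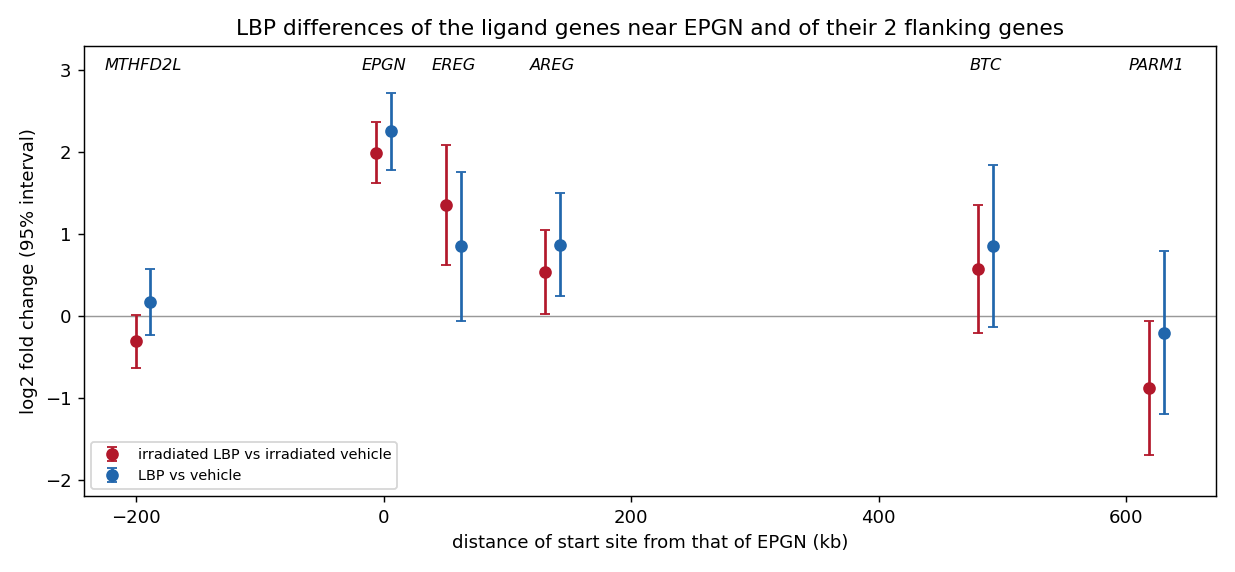
Log2 fold change with LBP (vertical, 95% interval) of the chromosome 4 ligand genes and their flanking genes, by distance of the start site from that of EPGN in kb. EPGN is highest in both comparisons (2.00 and 2.26), and MTHFD2L and PARM1 are below 0 in irradiated cells (-0.31 and -0.88).

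EGFR, the receptor of all 6 ligands, had 1130, 978 and 997 CPM in irradiated LBP cells, against 750, 826 and 754 CPM in irradiated vehicle cells. The groups did not overlap, and the log2 fold change was 0.41 ± 0.09, or 1035 ± 83 CPM with LBP against 777 ± 43 CPM with vehicle (SD, n = 3 each). Its call was lost without irradiated LBP replicate 1 (0.34) and without irradiated vehicle replicate 1, 2 or 3 (0.39, 0.46 and 0.39). It was also lost with limma on FPKM without a filter, so it held in 10 of 15 alternatives. In non-irradiated cells EGFR had 1079 and 874 CPM with LBP, against 900 and 803 CPM with vehicle, groups that overlapped. Its value there, 0.20 ± 0.11, did not pass (adjusted p = 0.46, edgeR), with a 95% interval from -0.04 to 0.44. EGFR made up 71.5% to 79.5% of the summed FPKM of the 4 ERBB receptor genes in the 10 libraries.

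ERBB2, the partner receptor without a ligand, had 116, 120 and 139 CPM in irradiated LBP cells, against 115, 106 and 110 CPM in irradiated vehicle cells (0.19 ± 0.08). In non-irradiated cells it had 109 and 113 CPM with LBP, against 118 and 107 CPM with vehicle (-0.02 ± 0.09, adjusted p = 0.94, edgeR), with a 95% interval from -0.22 to 0.18. ERBB3, the neuregulin receptor, had 17.1, 22.1 and 19.8 CPM in irradiated LBP cells, against 22.9, 19.7 and 18.6 CPM in irradiated vehicle cells (-0.06 ± 0.11). In non-irradiated cells it had 16.5 and 17.4 CPM with LBP, against 26.5 and 23.4 CPM with vehicle, groups that did not overlap. That value, -0.56 ± 0.14, did not pass with edgeR (adjusted p = 0.096) and passed with DESeq2 (adjusted p = 0.0078) and when only the 4 libraries were fitted (adjusted p = 0.027). ERBB2 and ERBB3 were the 2 members with negative values with LBP in non-irradiated cells.

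ERRFI1 encodes MIG6, which binds the kinase domain of active EGFR and is itself induced by EGFR signalling. It had 85.2, 37.7 and 80.8 CPM in irradiated LBP replicates 1, 2 and 3, against 52.5, 58.1 and 50.6 CPM in irradiated vehicle cells. Replicate 2 lay below all 3 vehicle libraries and the other two above them, and the log2 fold change was 0.34 ± 0.23. In non-irradiated cells ERRFI1 had 54.0 and 45.1 CPM with LBP, against 37.6 and 46.0 CPM with vehicle (0.24 ± 0.28, adjusted p = 0.75, edgeR).

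**Figure D4:**
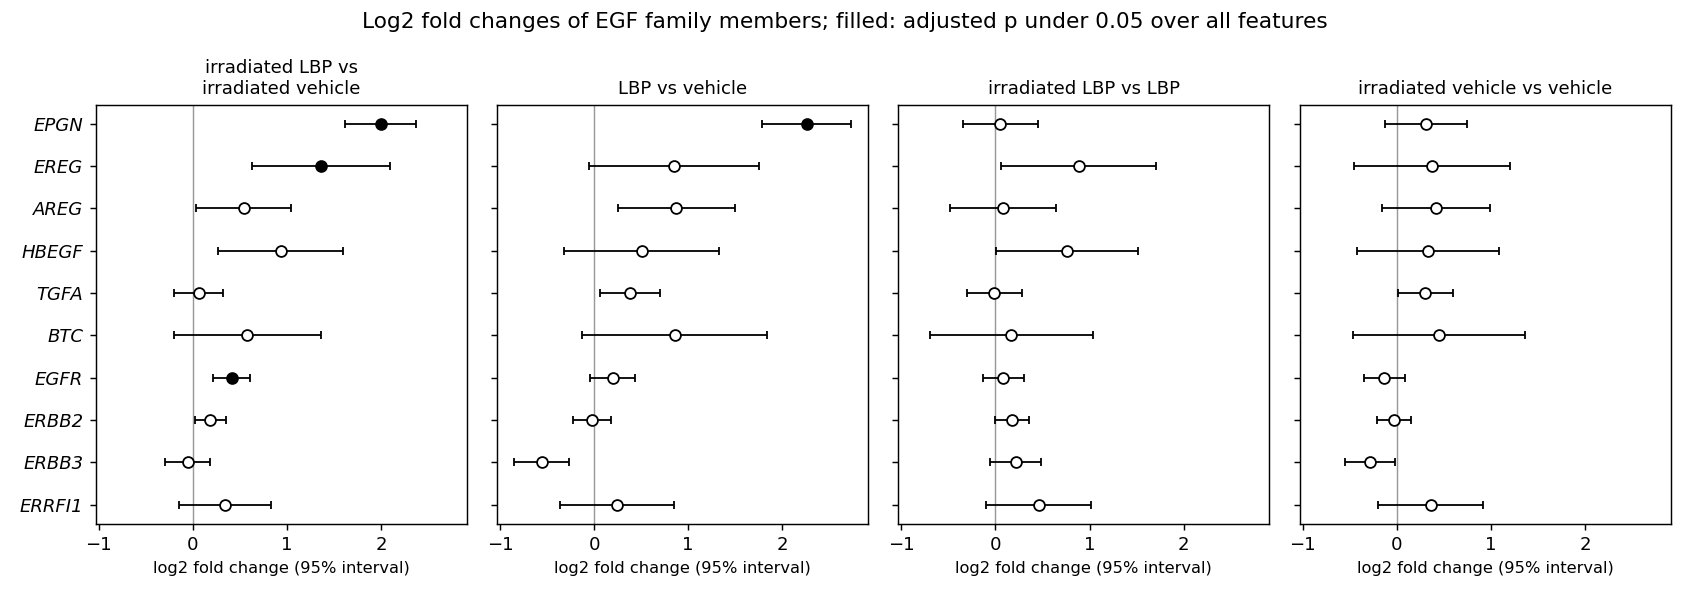
Log2 fold change (horizontal, with 95% interval) of each member in the 4 comparisons; filled points passed an adjusted p of 0.05 over all features. EPGN, EREG and EGFR are filled for irradiated LBP against irradiated vehicle cells, EPGN alone for LBP against vehicle cells, and no point is filled for irradiation.

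Irradiated LBP replicates 2 and 3 lay on opposite sides of their group for several of these genes. Relative to the mean of the group, on the log2 scale, replicate 2 stood at -0.90 for EREG, -0.94 for HBEGF, -0.64 for AREG, -0.76 for ERRFI1 and -0.24 for EPGN. The early response genes EGR1 and FOS, which encode transcription factors induced within minutes of growth factor signalling, were at -0.98 and -0.87 in the same library. Replicate 3 stood at 0.85 for EREG, 0.78 for HBEGF, 0.85 for EGR1 and 1.11 for FOS, and replicate 1 at 0.05, 0.16, 0.13 and -0.24 for these 4 genes. Without replicate 2, 6 of 10 members passed in irradiated cells, with log2 fold changes of 0.79 ± 0.17 for AREG, 1.27 ± 0.18 for HBEGF and 0.63 ± 0.11 for ERRFI1 beside EPGN, EREG and EGFR. In that fit 3.33% of all features passed in the higher direction. Replicate 2 was the lowest library of its group for AREG, HBEGF and ERRFI1. Leaving it out therefore raises their values and narrows their spread, and these added passes are no support. Without replicate 3, 2 passed (EPGN and EGFR), against 1.8% of all features. Without irradiated LBP replicate 1 or any 1 irradiated vehicle library, 1 passed (EPGN), against 0.878% to 1.73% of all features. Over all fits with 1 library left out, the value with LBP in irradiated cells ran from 0.49 to 1.27 for HBEGF. It ran from 0.37 to 0.79 for AREG and from 0.14 to 0.63 for ERRFI1. What set replicates 2 and 3 apart was not tested.

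**Figure D5:**
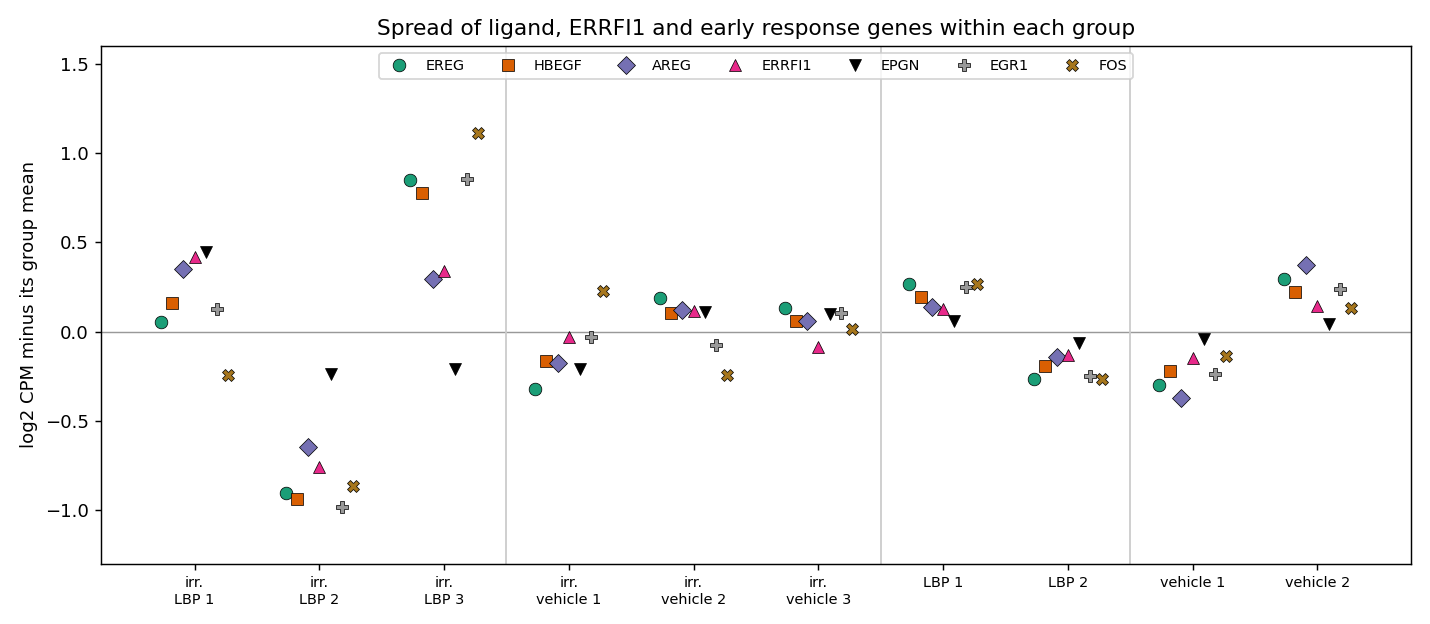
Log2 CPM of 7 genes in each library minus the mean of its group (vertical), by library. In irradiated LBP replicate 2, EREG, HBEGF, AREG, ERRFI1, EGR1 and FOS all lie between -0.98 and -0.64, while EPGN lies at -0.24.

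The comparisons of irradiated with non-irradiated cells ask what 12 Gy did to these genes within 3 h. They share libraries with the comparisons of LBP, so their values are not independent of those. None of the 10 members passed after vehicle (irradiated vehicle, n = 3, against vehicle, n = 2) by edgeR's quasi-likelihood test, against 0.439% of all features (0.0338% higher and 0.405% lower); 2 had an unadjusted p under 0.05, and DESeq2 and limma on FPKM called none. None passed after LBP (irradiated LBP, n = 3, against LBP, n = 2) with edgeR, against 0.142% of all features (0.0135% higher and 0.128% lower); 2 had an unadjusted p under 0.05, and DESeq2 and limma again called none. The median log2 fold change was 0.32 after vehicle and 0.17 after LBP, and over all features 0.0019 and 0.0021.

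After vehicle, EPGN had 4.18 to 5.21 CPM in irradiated cells, against 3.79 and 4.03 CPM in non-irradiated cells, a value of 0.31 ± 0.20 (adjusted p = 0.83, edgeR). After LBP its value was 0.05 ± 0.18, with a 95% interval from -0.35 to 0.45, which does not reach the difference of 2.26 seen with LBP. TGFA was at 0.30 ± 0.13 after vehicle (adjusted p = 0.71) and -0.01 ± 0.13 after LBP (adjusted p = 0.98). EREG was at 0.38 ± 0.38 after vehicle and 0.88 ± 0.38 after LBP (adjusted p = 0.91 and 0.34), and HBEGF at 0.33 ± 0.35 and 0.76 ± 0.35 (adjusted p = 0.91 and 0.37). AREG was at 0.41 ± 0.26 and 0.08 ± 0.26, and BTC at 0.45 ± 0.42 and 0.17 ± 0.40. These SEs leave room for differences of more than 2-fold in EREG, HBEGF and BTC, with 95% intervals that reach 1.71, 1.51 and 1.36.

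Of the receptors, EGFR was at -0.13 ± 0.10 with irradiation after vehicle and 0.08 ± 0.10 after LBP, and ERBB2 at -0.03 ± 0.08 and 0.18 ± 0.08. ERBB3 was at -0.29 ± 0.12 after vehicle and 0.21 ± 0.12 after LBP (adjusted p = 0.69 and 0.47, edgeR). ERRFI1 was at 0.36 ± 0.26 and 0.46 ± 0.26 (adjusted p = 0.85 and 0.45). Without irradiated LBP replicate 2, ERRFI1 passed after LBP, at 0.74 ± 0.12 (adjusted p = 0.025, edgeR). In that fit 0.162% of all features passed in the higher direction. ERRFI1 passed in only 1 of 14 alternatives. Replicate 2 was its lowest library of that group, so leaving it out raises the value and narrows the spread, and this pass is no support. Groups did not overlap for 3 members in the higher direction after vehicle (EPGN, TGFA and ERRFI1), against 13.8% of all features, and for 1 in the lower direction (ERBB3), against 13.9%, with 27.6% in either. After LBP, 1 member (ERBB2) was higher without overlap, against 14% of all features and 28% in either direction.

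How far LBP acted differently in irradiated and non-irradiated cells was asked with the interaction, taken as the log2 fold change with LBP after irradiation less the one without it. No member passed with edgeR, against 0.0135% of all features (0.00676% in each direction); 1 had an unadjusted p under 0.05, and DESeq2 and limma on FPKM called none. That member was ERBB3, at 0.50 ± 0.17 (adjusted p = 0.60). EPGN had an interaction of -0.26 ± 0.27, with a 95% interval from -0.85 to 0.33, EREG of 0.51 ± 0.53 and EGFR of 0.22 ± 0.14. The calls of EREG and EGFR in irradiated cells alone are therefore not shown to differ from the non-irradiated result.

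Other genes of the pathway were taken from 6 lists chosen with earlier results of these data known. Of their 90 genes, 87 were tested. With LBP in irradiated cells 5 passed in the higher and 2 in the lower direction, against the 2.79% and 1.57% of all features given above; these values are a description too. DESeq2 called 13 of the 87 and limma on FPKM 3. NRG4, a neuregulin gene, was 1 of 3 tested among the remaining ligands and ERBB4, with 3.65 ± 0.51 CPM in irradiated LBP cells against 2.03 ± 0.19 CPM in irradiated vehicle cells (SD, n = 3 each). NRG1, the main neuregulin gene here at 48.7 to 76.2 FPKM, was at 0.23 ± 0.11 in irradiated and 0.40 ± 0.14 in non-irradiated cells. EGF itself had at most 6 counts in a library and ERBB4 at most 18.

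Of 11 genes of ligand shedding, 3 passed with LBP in irradiated cells. ADAM17, the main sheddase of several EGF family ligands, had 77.4, 71.1 and 71.0 CPM in irradiated LBP cells, against 51.5, 58.3 and 53.5 CPM in irradiated vehicle cells, groups that did not overlap (0.43 ± 0.08). RHBDF1, encoding a rhomboid-like protein that helps ADAM17 mature, was at 0.38 ± 0.10, and ADAM19, another metalloprotease gene, at -0.38 ± 0.08. In non-irradiated cells ADAM17 had 68.5 and 56.9 CPM with LBP, against 53.8 and 50.2 CPM with vehicle, a value of 0.27 ± 0.10 that did not pass (adjusted p = 0.27, edgeR).

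None of the 18 genes of receptor adaptors and the RAS-ERK cascade and none of the 14 of the PI3K, phospholipase C and STAT arm passed with LBP in irradiated cells by edgeR, where 5 and 1 had an unadjusted p under 0.05 and DESeq2 called 2 and 0. Of 21 genes of receptor downregulation, CBLB, a ubiquitin ligase of activated receptors, passed at 0.46 ± 0.11. Of 20 ERK output and feedback genes, EGR1 passed in the higher direction (1.55 ± 0.33) and SPRY1, a feedback inhibitor gene, in the lower (-1.35 ± 0.22). SPRY1 was low, at 0.784 ± 0.20 CPM in irradiated LBP cells against 1.99 ± 0.063 CPM in irradiated vehicle cells (SD, n = 3 each). EGR1 had 36.2, 16.7 and 59.7 CPM in irradiated LBP replicates 1, 2 and 3, against 12.6, 12.2 and 13.8 CPM in irradiated vehicle cells, with the same low replicate 2 as EREG. DUSP6, an ERK phosphatase gene, was at 0.14 ± 0.16. DUSP6, NRG1, FOS and ERBB4 are list genes that did not pass here by edgeR, while FOS was among the 13 that DESeq2 called. FOS had 4.06, 2.62 and 10.5 CPM in irradiated LBP replicates 1, 2 and 3, against 2.31, 1.65 and 1.98 CPM in irradiated vehicle cells. EGF was not tested. These genes were all named after their values were seen.

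In non-irradiated cells none of the 87 genes passed with LBP by edgeR, while 15 had an unadjusted p under 0.05, DESeq2 called FOSL1 and ETV5, and limma on FPKM called none. With irradiation none passed after vehicle or after LBP by edgeR, where 8 and 7 had an unadjusted p under 0.05 and neither DESeq2 nor limma called any. For the interaction the count was 0 as well, with 5 at an unadjusted p under 0.05 and none by DESeq2 or limma. The median log2 fold change of the 20 ERK output genes was 0.069 with LBP in irradiated cells, 0.20 with LBP in non-irradiated cells, 0.26 with irradiation after vehicle and 0.18 after LBP, and that of the interaction was -0.030; over all features the medians were 0.0051, 0.010, 0.0019, 0.0021 and 0.0054. These comparisons share libraries with each other.

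The genes whose log2 CPM followed EPGN most closely over the 10 libraries, among 11062 candidates, were SRXN1, OSGIN1, SLC7A11, GPAT3 and ASNS, with a Pearson r from 0.987 to 0.995. Those closest to EREG were PPP1R15A, CD55, SLC25A25, HBEGF and MAST4, with r from 0.973 to 0.979. These r are a measure of likeness only, since the 10 libraries form 4 groups that share their treatments. EPGN and EREG, neighbours on the chromosome, thus had different closest genes, and HBEGF, on another chromosome, was among those of EREG.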

How the data were processed

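RNA from 10 HaCaT libraries was sequenced. The authors deposited raw counts for 22003 features. They also deposited FPKM, scaled for gene length and depth, for those features. The submitters' processing notes name HISAT2 and GRCh38; which counting tool, strand setting and annotation were used is not given in the sources used here. Of counts from 1 to 10, 59.7% were even, so both mates of some read pairs may have been counted; counting error is then above what the totals give.

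Groups came from the labels. The test was edgeR's quasi-likelihood test (version 4.0.16, R version 4.3.3). A filter at a minimum count of 10 left 14799 features, TMM factors set the library scale, and all 10 libraries entered 1 fit of 4 group means with 6 residual degrees of freedom. P-values were adjusted by Benjamini-Hochberg over all 14799 features, with calls under 0.05. DESeq2 1.42.0 and limma 3.58.1 on log2(FPKM + 1) were alternatives; fold changes on that scale understate those of low genes. The procedure was tested on simulated counts in which every gene had an SD of 11.5% of its mean beyond counting error. EREG and HBEGF varied more within irradiated LBP cells (51.2 ± 29.0 and 49.8 ± 26.6 CPM, SD, n = 3). The simulation therefore does not cover genes of such spread. Values are log2 fold changes ± SE, and CPM are TMM-scaled. Positions are from GENCODE release 29 and promoter sequences from RefSeq. By rule the text names all 10 members, list genes that passed, and the 5 genes most like EPGN and EREG. Members and lists were chosen with earlier results of these data known.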

Additional observations from a re-analysis of the deposited data

How the results depend on the processing

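With LBP in irradiated cells, the number of members called was 3, 2 with limma at either pseudocount, 2 with only the 2 groups compared, and 1 with limma on log2(FPKM + 1) without a filter; leaving out 1 library gave 1 to 6. With LBP in non-irradiated cells it was 1, against 2 with DESeq2 and 3 with only the 2 groups compared. With irradiation after LBP it was 0, and 0 to 1 with 1 library left out. Leaving out a library of a pair leaves that group with 1 library, assumed to vary like the other groups. Scaling by total counts or median-ratio size factors changed none of these counts, and the replicate block left them at 3, 1, 0, 0 and 0; same-numbered libraries did not deviate together (r of -0.08 to 0.11 among irradiated pairs), so the numbers were not used as pairs.

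Of 740 values of single members under alternatives, 30 changed sign, in 13 of 50 results, none of them called. With irradiation after LBP, TGFA was at 0.031 with total counts and 0.012 with limma at either pseudocount or no filter, and AREG at -0.0051 with the replicate block. With 1 library left out, the ranges for irradiation after LBP were -0.21 to 0.17 for EPGN, -0.084 to 0.33 for AREG, -0.18 to 0.10 for TGFA, -0.10 to 0.49 for BTC and -0.061 to 0.24 for EGFR. They were -0.089 to 0.034 for ERBB2 with LBP in non-irradiated cells, -0.10 to 0.033 for ERBB2 with irradiation after vehicle, -0.11 to 0.18 for TGFA and -0.15 to 0.035 for ERBB3 with LBP in irradiated cells. For the interaction they were -0.0046 to 0.84 for EREG, -0.013 to 0.77 for HBEGF, -0.98 to 0.12 for BTC and -0.095 to 0.39 for ERRFI1. The cause was not tested.

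The number of all features called ranged from 169 to 1228 around 645 with LBP in irradiated cells, 45 to 374 around 119 in non-irradiated cells, 21 to 129 around 65 with irradiation after vehicle, 7 to 184 around 21 after LBP and 1 to 16 around 2 for the interaction, highest with DESeq2 in all 5. Leaving out 1 library gave 180 to 724, 38 to 51, 25 to 38, 8 to 51 and 2 to 5.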

Other observations

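The authors' FPKM and the counts gave different relative levels for 1 member. FPKM divided by CPM would be nearly constant for a gene over libraries if 1 fixed length were used. For 9 members the highest ratio was 1.06 to 1.11 times the lowest. For EPGN it was 1.61 times, from 0.336 to 0.540. In vehicle cells EPGN had 2.05 and 1.41 FPKM, against 3.79 and 4.03 CPM in the same libraries, so the order of the libraries was turned round. Its log2 difference with LBP in non-irradiated cells was 1.85 ± 0.23 on log2(FPKM + 0.1) and 2.26 ± 0.22 on counts. Such a shift was not particular to EPGN. USP8, a receptor downregulation list gene, had 10.3 FPKM at 101 CPM in LBP replicate 1, against 6.82 FPKM at 104 CPM in irradiated LBP replicate 1.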
